A study of Mus musculus with 2 samples.

Results

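In mouse adrenal gland, 1442 transcript structures of the class NIC were read at least 5 times. In the authors' tables this class holds transcripts whose introns use known splice sites in a combination that no annotated transcript has. A structure is the full chain of introns of a transcript model, identified by chromosome, strand and the start and end of every intron. The structures were chosen by their class and read count, so both are given here as a description. Replicate 1 gave 688 of them with at least 5 reads, out of 10437 NIC models and 98236 models in all, and replicate 2 gave 1012, out of 15636 NIC models and 86472 models in all. In 258 structures the count reached 5 in both libraries. Just inside the limit, 169 NIC models of replicate 1 and 253 of replicate 2 had exactly 5 reads. Just outside it, 270 of replicate 1 and 361 of replicate 2 had 4 reads. Models with 1 read made up 73.0% of the NIC models in replicate 1 and 74.6% in replicate 2.

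The series holds 1 group of 2 long-read RNA libraries, made from wild-type adrenal tissue of C57BL/6J mice and numbered as biological replicates 1 and 2. The labels give them separate biosamples under 1 donor entry, call the tissue male in a description and sex not collected in another field, and give the age as unknown. The spread between the libraries may in part be technical. No treatment, time or genotype was compared. The libraries held 848782 reads in replicate 1 and 545229 in replicate 2, in which 1 read is worth 1.18 and 1.83 counts per 1000000 reads (CPM). Cortex markers of steroid synthesis summed to 55635 CPM in replicate 1 and 81170 CPM in replicate 2 over 5 genes, of which Hsd3b1 went the other way (11679 CPM in replicate 1, against 4561 in replicate 2). The 5 chromaffin markers of the medulla summed to 10093 CPM in replicate 1 and 23122 CPM in replicate 2. Their order was not shared, since Th had 2831 CPM in replicate 1 and 1489 CPM in replicate 2 and Pnmt 694 CPM in replicate 1 and 160 CPM in replicate 2, while Chga, Dbh and Chgb had more in replicate 2. Markers of erythroid cells summed to 1304 CPM in replicate 1 and 97.2 CPM in replicate 2. Of 3 kidney markers, Lrp2 had 1 read in replicate 1, and Umod and Slc34a1 had 0 in both. The median annotated length over spliced known reads was 1674 bases in replicate 1 and 2740 bases in replicate 2.

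Splicing removes introns between a donor site at the end of 1 exon and an acceptor site at the start of the next, and the choice of sites decides which exons stay in the mRNA. An NIC structure can leave out a whole exon, keep an intron, start from another first exon or join a donor to an unusual acceptor. A change of reading frame or a stop codon well upstream of the last junction can direct an mRNA to nonsense-mediated decay, and retained introns are also common in RNA that is still in the nucleus. In the adrenal gland, steroid hormones are made in the cortex, and chromaffin cells of the medulla make catecholamines.

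Several of the most read structures differed by a handful of bases from the reference model, the annotated model with the most shared introns. Oaz1, Oaz2, Phb2 and Sept7 are among them. The sequences at these places are shown before the values, with the longer exon of Mbnl2, the most read exon skip. Sequences are of GENCODE M21 transcripts on mm10, 5′ to 3′, in the sense of the gene, with 30 exonic bases on each side. Capitals mark the bases that the annotated model and the NIC structure treat differently. Coordinates are those of the capitals. In Oaz1 (chr10:80828292-80828295, + strand) and Oaz2 (chr9:65686269-65686272, + strand), which encode antizymes, the inhibitors of ornithine decarboxylase, the annotation takes out 4 bases as if they were an intron and the NIC structure keeps them. Antizyme mRNAs are known for a programmed ribosomal frameshift at the stop codon TGA that directly follows TCC, and the capitals with the next letters spell TCCTGA in both genes.
Oaz1: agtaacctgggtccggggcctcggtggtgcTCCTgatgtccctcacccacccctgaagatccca
Oaz2: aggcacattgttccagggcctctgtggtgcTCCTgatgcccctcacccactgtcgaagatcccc
In Sept7 (a septin; chr9:25265302-25265306, + strand), Phb2 (the mitochondrial prohibitin 2; chr6:124716425-124716430, + strand) and Mbnl2 (a splicing regulator of the muscleblind family; chr14:120404638-120404732, + strand), the capitals are an annotated exon that the NIC structure skips.
Sept7: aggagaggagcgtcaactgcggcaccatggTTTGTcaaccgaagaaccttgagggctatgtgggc
Phb2: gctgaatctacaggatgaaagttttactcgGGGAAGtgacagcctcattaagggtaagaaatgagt
Mbnl2: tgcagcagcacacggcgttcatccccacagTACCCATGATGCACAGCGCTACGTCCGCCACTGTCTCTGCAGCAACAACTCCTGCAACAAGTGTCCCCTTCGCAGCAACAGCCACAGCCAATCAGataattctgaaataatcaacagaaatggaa

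In Hnrnpk, a nuclear RNA-binding protein, the NIC structures do not use a 16-base annotated exon (chr13:58393853-58393868, - strand). The exon before it is longer by 16 other bases (chr13:58394060-58394075), which another annotated transcript holds inside an exon.
Hnrnpk annotated exon: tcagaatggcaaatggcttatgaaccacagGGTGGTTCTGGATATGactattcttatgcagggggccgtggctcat
Hnrnpk NIC structure: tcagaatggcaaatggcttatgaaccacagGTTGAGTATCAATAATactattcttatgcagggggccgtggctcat
Both versions have the same length and differ in letters. In Gbe1, the glycogen branching enzyme, the intron of the NIC structure was moved by 4 bases against the reference model. GTAG stands before the intron in the reference model (chr16:70401850-70401853, + strand) and after it in the NIC structure (chr16:70433545-70433548). Another annotated model has the moved intron.
Gbe1 annotated: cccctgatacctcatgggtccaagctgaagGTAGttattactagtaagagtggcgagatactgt
Gbe1 NIC structure: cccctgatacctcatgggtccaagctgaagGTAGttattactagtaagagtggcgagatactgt
These Gbe1 sequences are identical letter for letter over the stretch shown. The Oaz2 and Gbe1 sequences, and that of Frmd6 given later, were added after the values had been seen. The deposited files give positions and no read letters, so the letters of the reads themselves could not be compared.

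The class label was first set against the annotation. In 1222 of the 1442 structures (84.7%) every donor and acceptor was listed in GENCODE M21. In the other 220 (15.3%, exact Clopper-Pearson 95% interval 13.4 to 17.2) at least 1 was not, which goes against the name of the class. Those 220 used 137 different unlisted donors, of which 52 (38.0%) lay 4 bases from a listed donor, and 82 different unlisted acceptors, of which 28 (34.1%) lay 3 bases from a listed acceptor. More than 50 bases from any listed site were 42 of the donors and 28 of the acceptors. The unlisted Hnrnpk donor lies 16 bases from a listed one. The structures are kept here under the rule. Counts of each type, the share found again and the calls of use within genes are also given without the 220. The share found again by read count, the type shares of each library, the reading frames and the gene lists are given with them only.

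Each structure was then sought in the other library by its introns. Of the 688 chosen on replicate 1, 449 (65.3%, 61.6 to 68.8) were NIC in replicate 2 with at least 1 read. Of the 1012 chosen on replicate 2, 699 (69.1%, 66.1 to 71.9) were NIC in replicate 1. In all, 890 of the 1442 (61.7%, 59.2 to 64.2) were read as NIC in both libraries, and 1003 (69.6%) in both when any class counted. Of the 239 of replicate 1 that were not NIC in replicate 2, 61 had the same introns there under another class, 38 of them as NNC, the class with an unlisted splice site. Of the 313 of replicate 2 that were not NIC in replicate 1, 52 had another class, 45 of them NNC. For these 61 and 52 structures, 0 reads as NIC is a change of class name and not an absence of the introns.

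The share found again was higher at higher read counts, although the intervals of the lowest and highest counts overlap from replicate 1 to replicate 2. From replicate 1 to replicate 2 it was 61.5% (56.7 to 66.0) at 5 to 9 reads, 69.3% at 10 to 19, 75.0% at 20 to 49 and 80.0% (59.3 to 93.2) at 50 or more. At 5 to 9 reads the share was 46.2% (40.0 to 52.4) for NNC structures and 76.8% for known ones, so the NIC structures stood between the other classes there. From replicate 1, NNC was above NIC at higher counts, at 76.3% for 20 to 49 reads and 89.5% (66.9 to 98.7) for 50 or more, with overlapping intervals. From replicate 2 to replicate 1 the NIC share was 61.9% (57.9 to 65.7) at 5 to 9 reads and 93.3% (77.9 to 99.2) at 50 or more, beside 53.8% and 90.0% for NNC and 84.1% and 99.6% for known structures. Structures in which every junction was annotated were found again in 361 of 493 (73.2%) from replicate 1 and 587 of 790 (74.3%) from replicate 2. Those with an unannotated junction were found again in 88 of 195 (45.1%) from replicate 1 and 112 of 222 (50.5%) from replicate 2. Among those with an unannotated junction and every site listed, 59 of 93 (63.4%) from replicate 1 and 67 of 89 (75.3%) from replicate 2 were found again.

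**Figure D1:**
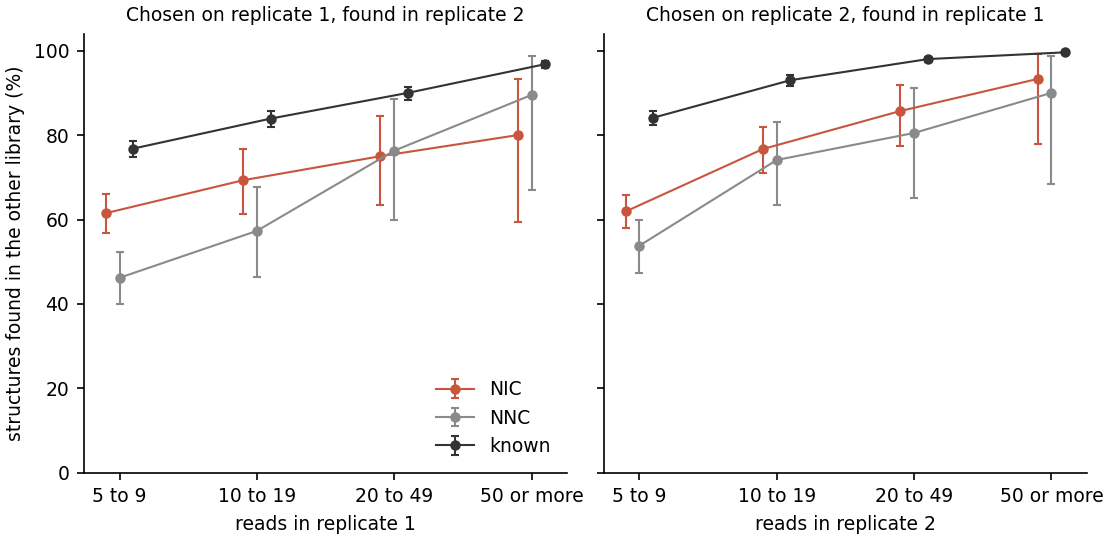
Share of structures with at least 5 reads in one library that were read with the same introns and class in the other library (y axis, percent, bars are exact 95% intervals) by read count (x axis) for NIC, NNC and known structures. At 5 to 9 reads NIC lay between NNC and known in both directions, at 61.5% from replicate 1 and 61.9% from replicate 2.

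Read counts were low for most structures. The median was 7 reads among those chosen on replicate 1 and 8 among those chosen on replicate 2, with the highest counts at 3420 reads for Oaz1 in replicate 1 and 561 for Cyb561 in replicate 2. The chosen structures held 50.6% of all NIC reads in replicate 1 and 42.6% in replicate 2. They had a median of 7 introns in replicate 1 and 10 in replicate 2, beside 6 and 8 for known structures, and a median length of 1801.5 and 2716.5 bases, beside 2019 and 2772.

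**Figure D2:**
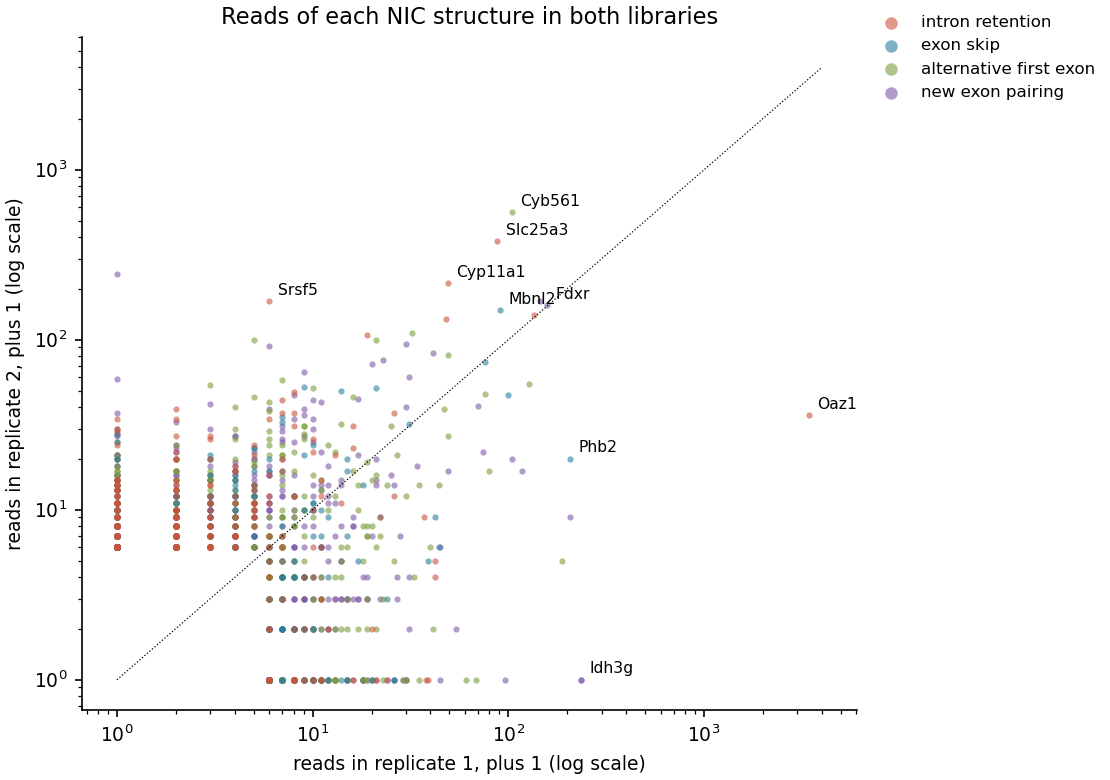
Reads of each NIC structure in replicate 1 (x axis) and replicate 2 (y axis), with 1 added and on log scales, coloured by type; the dotted line marks equal counts. Oaz1 stands far to the right at 3420 reads in replicate 1 and 35 in replicate 2, Cyb561 is highest in replicate 2 at 561 reads, and the points on the axes are structures with 0 reads as NIC in the other library.

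By type, each set against the annotated model with the most shared introns, 580 structures (40.2%) were a new exon pairing, 389 (27.0%) an alternative first exon, 285 (19.8%) an intron retention and 185 (12.8%) an exon skip, while 3 had no annotated gene. Among the 1222 structures with every site listed, these were 417, 342, 279 and 184. New exon pairing holds what the other types do not: 249 structures had another acceptor, 211 another donor, 145 both, 62 an extra exon, 54 another last exon or acceptor, and 46 an intron inside an annotated exon, with several kinds possible in 1 structure. More than 1 type of difference was present in 183 structures (12.7%). In 1065 structures every junction was annotated, and in 377 (26.1%) at least 1 was not, of which 157 had all sites listed. Read in both libraries as NIC were 60.4% of the intron retentions, 62.7% of the exon skips, 64.5% of the alternative first exons and 60.5% of the new pairings.

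Intron retention was a larger share of the structures of replicate 2. It made up 10.8% (8.54 to 13.3) of the structures chosen on replicate 1 and 24.6% (22.0 to 27.4) of those chosen on replicate 2. Alternative first exons made up 31.5% (28.1 to 35.2) in replicate 1 and 25.2% (22.5 to 28.0) in replicate 2, new pairings 43.9% (40.1 to 47.7) and 37.8% (34.8 to 40.9), and exon skips 13.5% (11.1 to 16.3) and 12.3% (10.3 to 14.4). The intervals of retention and of alternative first exons do not overlap, those of new pairings and of exon skips do, and 258 structures stand in both libraries. By reads the order between the libraries was the other way, with 4722 reads of intron retention in replicate 1 (33.4% of 14149) and 3554 in replicate 2 (24.4% of 14548). That rests on 6 structures whose interval is under 30 bases, Oaz1 among them, with 3662 reads in replicate 1 and 185 in replicate 2. The other 279 intron-retention structures held 1060 in replicate 1 and 3369 reads in replicate 2. Oaz1 alone made up 13.4% of all NIC reads in replicate 1 and 0.106% in replicate 2.

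**Figure D3:**
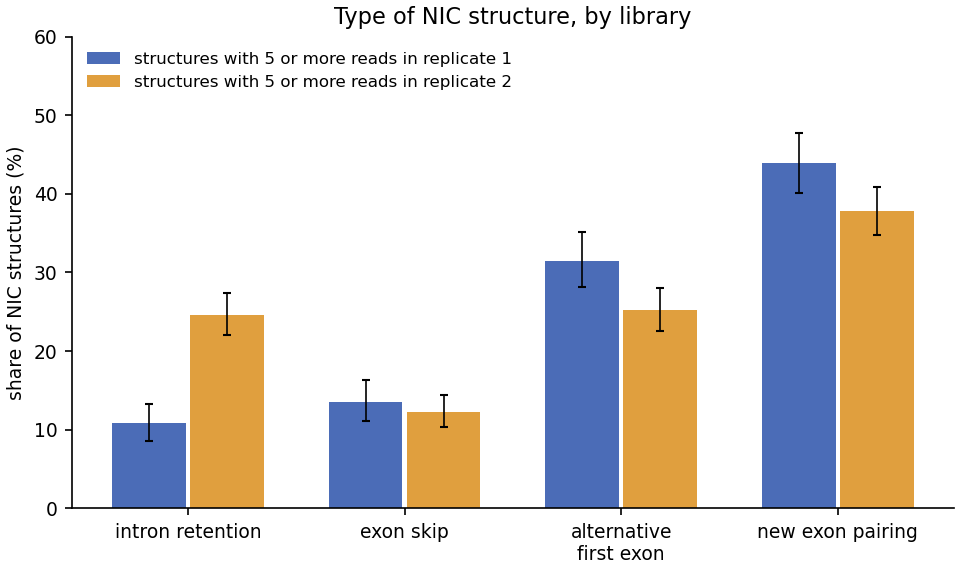
Share of the NIC structures with at least 5 reads in a library (y axis, percent, bars from 0 with exact 95% intervals) that were of each of 4 types (x axis), for replicate 1 and replicate 2. Intron retention made up 10.8% of the structures in replicate 1 and 24.6% in replicate 2.

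The Oaz1 structure had 3420 of 3581 spliced reads of its gene in replicate 1 (95.5%, 94.8 to 96.2) and 35 of 39 in replicate 2 (89.7%, 75.8 to 97.1). Every known, NIC and NNC spliced read that either kept the 4 bases or removed exactly them was placed with them kept in both libraries. The annotated model without them had 0 reads. Read in the frame of the annotated start, the structure reached a stop codon after 68 codons, the TGA (chr10:80828295-80828297) whose first base is the last of the 4 capitals. Oaz2 had 135 of 151 (89.4%) in replicate 1 and 139 of 149 (93.3%) in replicate 2, again with all such reads placed with the bases kept. Shares were compared between the libraries by Fisher's exact test, two-sided, and neither passed the threshold of 0.05 (exact adjusted p = 0.36 for Oaz1 and 0.678 for Oaz2). The test takes the known, NIC and NNC spliced reads of a gene as the total and adjusts by Benjamini-Hochberg over all 3611 models tested, and it compares these libraries only. The shares averaged 92.6% ± 4.07 for Oaz1 and 91.3% ± 2.75 for Oaz2 (SD, n = 2).

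Retention of longer introns reached its highest counts in Slc25a3, the mitochondrial phosphate carrier. The structure with a kept intron of 1514 bases (chr10:91122044-91123557, - strand) held 87 of 2308 spliced reads of the gene in replicate 1 (3.77%, 3.03 to 4.63) and 379 of 761 in replicate 2 (49.8%, 46.2 to 53.4), a difference that passed the test (exact adjusted p = 5.41e-176). Among known, NIC and NNC spliced reads that either kept the whole intron or removed exactly it, 4.31% in replicate 1 and 62.2% in replicate 2 kept it. Reads that cross the place with another donor or acceptor are left out. Such reads are the total wherever a share of spanning reads that kept an intron is given, with the same omission. In frame it met a stop after 92 codons, 2148 bases before the last junction. At both ends of this intron, shown with the retained bases in capitals, the annotated sites begin with GT and end with AG.
Slc25a3 donor side: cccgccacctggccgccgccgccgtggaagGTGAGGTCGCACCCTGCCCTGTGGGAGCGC
Slc25a3 acceptor side: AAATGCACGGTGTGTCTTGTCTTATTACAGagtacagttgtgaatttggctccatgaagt
The structure was 3024 bases long in replicate 2, beside a read-weighted mean of 1639 bases for the other spliced models of the gene.

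In Srsf5, a splicing factor of the serine/arginine-rich family, the structure with a kept intron of 1229 bases (chr12:80947866-80949094, + strand) held 5 of 20 spliced reads in replicate 1 and 168 of 308 in replicate 2 (54.5% in replicate 2, 48.8 to 60.2), which did not pass (exact adjusted p = 0.0774). Over all structures, 52.6% of spanning reads kept this intron in replicate 1 and 97.3% in replicate 2. In steroidogenic genes the counts were high and the shares low. A structure of Cyp11a1, the cholesterol side-chain cleavage enzyme, with a kept intron of 478 bases had 48 reads (0.743% of the gene, 0.548 to 0.983) in replicate 1 and 214 (4.10%, 3.58 to 4.68) in replicate 2. One of Akr1b7, an aldo-keto reductase of the cortex, with a kept intron of 1048 bases had 47 reads (0.810%, 0.596 to 1.08) in replicate 1 and 131 (11.4%, 9.59 to 13.3) in replicate 2. Both were higher in replicate 2 (exact adjusted p = 3.85e-33 for Cyp11a1 and 8.16e-63 for Akr1b7). Over all structures, spanning reads that kept the intron were 1.08% in replicate 1 and 6.64% in replicate 2 for Cyp11a1, and 0.932% and 14.9% for Akr1b7. The annotated transcripts hold no sequence of these 2 introns, so none is shown.

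The 285 intron-retention structures kept 260 different introns, and 215 of them kept a single one. The median kept intron was 393.5 bases long, beside 423.5 bases for 1638 other introns of the same genes. An annotated model has 132 of the 260 (50.8%) inside an exon. Of them 3 were the last intron of the reference model and 5 the first, beside 192 and 198 of 1898 introns. The class itself sets this, since a structure that lacks only its first or last junction is filed as an incomplete match. Over 234 kept introns that could be compared, the median share of spanning reads that kept the intron was 1.96% in replicate 1 and 12.8% in replicate 2.

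Exon skips left out 172 different stretches in 185 structures, and 172 structures skipped 1 exon. The Mbnl2 structure without the 95-base exon held 90 of 126 spliced reads of the gene in replicate 1 (71.4%, 62.7 to 79.1) and 149 of 203 in replicate 2 (73.4%, 66.8 to 79.3). Counted over models of all classes, its skipping junction, which another annotated model has, had 109 reads in replicate 1 and 174 in replicate 2. The junctions into and out of the exon had 22 and 24 reads in replicate 1 and 27 and 30 in replicate 2. By these junctions, 82.6% of spanning reads lacked the exon in replicate 1 and 85.9% in replicate 2. The share of the structure did not differ past the threshold (exact adjusted p = 0.971). The Sept7 structure without the 5-base exon held 75 of 82 spliced reads of the gene in replicate 1 (91.5%) and 73 of 78 in replicate 2 (93.6%). As placed, all reads over this position skipped that exon, since the annotated junctions on either side of it had 0 reads in both. Whether the reads lack its 5 bases could not be checked without their letters. In frame, this Sept7 structure meets a stop after 25 codons. The Phb2 structure without the 6-base exon held 205 of 215 spliced reads of the gene (95.3%, 91.6 to 97.7) in replicate 1 and 19 of 25 (76.0%, 54.9 to 90.6) in replicate 2. As placed, and with the same limit, all spanning reads skipped the exon in both libraries. The skipping junction, which another annotated model has, had 212 reads in replicate 1 and 26 in replicate 2. The annotated junctions on either side of the exon had 0. The share of this structure, and not the skipping, was lower in replicate 2 (exact adjusted p = 0.025).

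Among the stretches that were wholly coding, 83 of 143 (58.0%, 49.5 to 66.2) had a length divisible by 3, which keeps the reading frame, beside 795 of 1804 (44.1%, 41.8 to 46.4) coding internal exons of the same genes. The intervals do not overlap, and no test of this difference was made. Skipped exons had a median of 90 bases, beside 112. Stretches under 30 bases made up 11 of the skip structures, with 325 reads in replicate 1 and 166 in replicate 2. In the steroid genes the most read skip was a 90-base coding stretch of Cyp21a1, the steroid 21-hydroxylase, in 30 reads of replicate 1 (0.254%) and 31 of replicate 2 (0.283%). A structure of Chga, the chromaffin granule protein chromogranin A, that lacks 69 coding bases had 14 reads (0.821%) in replicate 1 and 16 reads (0.510%) in replicate 2. Neither differed past the threshold (exact adjusted p = 0.971 for Cyp21a1 and 0.608 for Chga).

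Alternative first exons began at annotated starts in most cases. Of the 389 structures, 347 (89.2%) used a donor that ends an annotated first exon and 362 (93.1%) started within 50 bases of an annotated start, with 208 upstream of the start of the reference model and a median distance of 743 bases between donors. Cyb561, a cytochrome of chromaffin granules that moves electrons for catecholamine synthesis, was the most read. Its structure had 103 of 235 spliced reads in replicate 1 (43.8%, 37.4 to 50.4) and 561 of 950 in replicate 2 (59.1%, 55.8 to 62.2), a mean of 51.4% ± 10.8 (SD, n = 2). The junction from its first exon had 118 reads in replicate 1 and 629 in replicate 2, and that from the first exon of the reference model 77 and 165. Both junctions are annotated. The coding sequence was that of an annotated model, of 250 codons. Its share was higher in replicate 2 (exact adjusted p = 0.000483). The level was 121 CPM in replicate 1 and 1029 CPM in replicate 2. In bulk tissue, fewer cells of a type and less RNA per cell cannot be told apart, and the part of cell makeup in the share was not tested.

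Clu, the secreted chaperone clusterin, was lower in replicate 2. Its structure had 126 of 259 reads in replicate 1 (48.6%, 42.4 to 54.9) and 54 of 381 in replicate 2 (14.2%, 10.8 to 18.1), with exact adjusted p = 3.14e-19. The junction of the annotated first exon had 134 reads in replicate 1 and 327 in replicate 2. Akap2, an anchoring protein of protein kinase A, had 31 reads (18.9%) in replicate 1 and 109 reads (22.5%) in replicate 2, and did not pass (exact adjusted p = 0.745). Srebf1, a transcription factor of lipid synthesis, had its most read structure in this type at 2 of 13 spliced reads in replicate 1 and 53 of 142 in replicate 2, too few in replicate 1 for the test.

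The new exon pairings included a steroidogenic gene. In Fdxr, the ferredoxin reductase that passes electrons to the steroidogenic P450 enzymes, the structure used an acceptor that removes 54 coding bases (chr11:115271946-115271999, - strand), shown in capitals.
Fdxr: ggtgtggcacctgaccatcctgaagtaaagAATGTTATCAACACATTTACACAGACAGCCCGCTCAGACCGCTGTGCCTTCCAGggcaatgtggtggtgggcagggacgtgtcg
It was read 156 times in replicate 1 (16.6%, 14.3 to 19.2) and 158 times in replicate 2 (11.0%, 9.42 to 12.7), lower in replicate 2 (exact adjusted p = 0.00137). Frmd6, a FERM-domain protein, lacked 24 bases (chr12:70877240-70877263, + strand) through another donor.
Frmd6: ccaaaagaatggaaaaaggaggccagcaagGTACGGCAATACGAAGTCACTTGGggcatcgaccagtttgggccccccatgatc
It had 22 of 32 reads in replicate 1 (68.8%) and 75 of 98 in replicate 2 (76.5%, 66.9 to 84.5), without a difference past the threshold (exact adjusted p = 0.84). Cops7a, a COP9 signalosome subunit, had 73 of 102 (71.6%) in replicate 1 and 21 of 28 (75.0%) in replicate 2 with another last exon or acceptor (exact adjusted p = 1).

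The Hnrnpk structure had 144 reads in replicate 1 (28.8%, 24.9 to 33.0) and 169 in replicate 2 (25.4%, 22.1 to 28.9), with exact adjusted p = 0.547. A second Hnrnpk structure, with the same inserted bases and another last intron, had 0 reads as NIC in replicate 1 and 243 in replicate 2 (36.5%, 32.9 to 40.3). In replicate 1 its introns carried 197 reads in the class NNC. With NIC and NNC reads of the same introns summed, a choice made after the data were seen, the shares were 39.4% in replicate 1 and 36.5% in replicate 2 with exact adjusted p = 0.713. The 285-base intron that gives the inserted bases had 481 reads in replicate 1 and 644 in replicate 2, and no annotated model has it. The annotated junctions on either side of the 16-base exon had 0 reads in replicate 1, and 0 and 1 in replicate 2. The Gbe1 structure had 29 of 30 reads in replicate 1 (96.7%) and 39 of 40 in replicate 2 (97.5%). Its moved junction, which another annotated model has, had 30 reads in replicate 1 and 40 in replicate 2. The junction of the reference model had 0 in both.

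**Figure D4:**
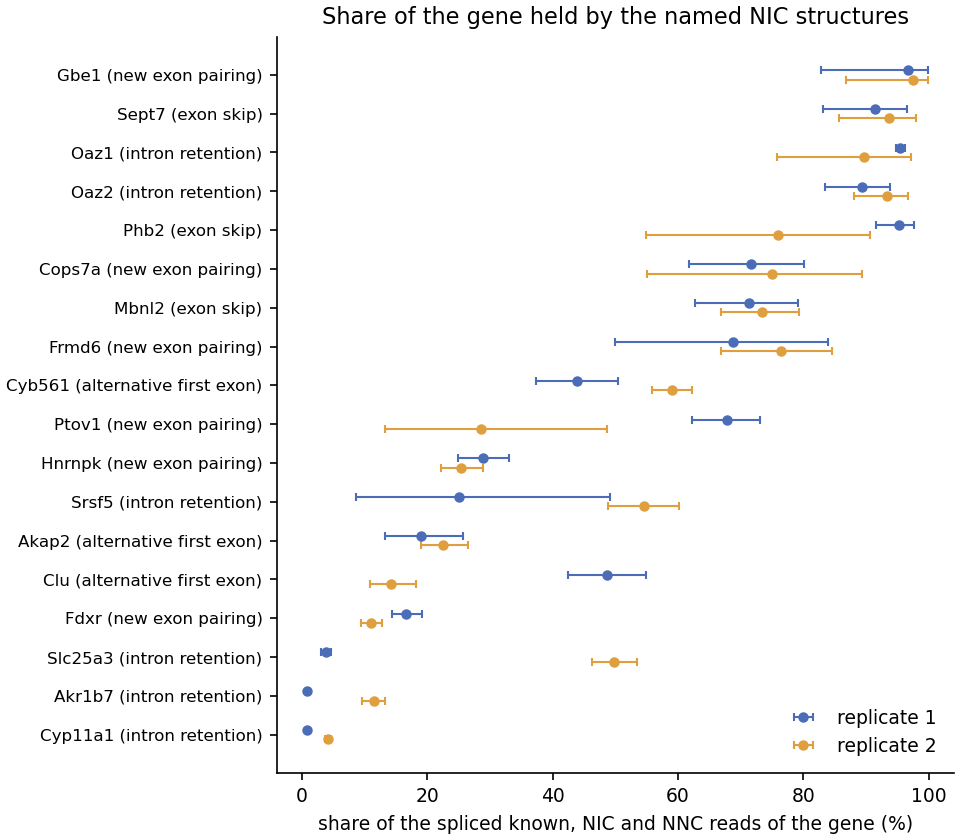
Share of the known, NIC and NNC spliced reads of the gene (percent) taken by named NIC structures in replicate 1 and replicate 2, with exact 95% intervals. Mbnl2 stood at 71.4% in replicate 1 and 73.4% in replicate 2 with overlapping intervals, Slc25a3 at 3.77% in replicate 1 and 49.8% in replicate 2, and Clu at 48.6% in replicate 1 and 14.2% in replicate 2.

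The structures whose difference from the reference model is a few bases were counted apart. Of 284419 annotated introns, 386 are under 30 bases. The retention structures with such an interval numbered 6. Skips of under 10 bases numbered 4, in Phb2, Sept7, Rwdd4a and Spock2, with 284 reads in replicate 1 and 105 in replicate 2. A short exon was replaced by the same number of neighbouring bases in 6 structures, 5 of Hnrnpk and 1 of Pitpnb, with 231 in replicate 1 and 545 reads in replicate 2. An intron of the same length was shifted in 3, of Gbe1, Mul1 and Cyp11b1. These counts leave out the Idh3g, Bsg and Uchl3 structures given below, and the Rps24 structure with an unlisted donor. In each of them an intron passes over an annotated exon of under 30 bases and has another donor or acceptor than the annotated model. Of 1183 structures whose full sequence lies in annotated transcripts, 3 spell a stretch identical to an annotated transcript, in Gbe1, Mul1 and Zdhhc17.

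Of the structures, 1413 lay in protein-coding genes, and their reading frame was followed from the annotated start where the structure and its sequence held it. The coding sequence was that of an annotated model in 435 (30.8%), another one with an annotated stop in 330 (23.4%), and one with an unannotated stop more than 50 bases before the last junction in 328 (23.2%). In 166 (11.7%) the annotated transcripts do not hold the sequence, in 71 no annotated start lay in the structure, in 34 no stop was met, and in 49 an unannotated stop lay later. Types differed in this, and also in how many could be read. The annotated transcripts did not hold the sequence of 86 of 272 retentions (31.6%), 2 of 178 skips, 4 of 387 alternative first exons and 74 of 576 new pairings. Of the 272 retentions, 159 (58.5%) met an early stop, the Oaz1 and Oaz2 structures among them. Of 178 skips, 85 (47.8%) kept an annotated stop with another coding sequence and 40 (22.5%) met an early stop. Of 387 alternative first exons, 247 (63.8%) kept an annotated coding sequence. Of 576 new pairings, 209 (36.3%) had another coding sequence with an annotated stop, 156 (27.1%) an annotated one and 84 an early stop.

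The 1442 structures lay in 977 genes, of which 734 (75.1%) had 1 and 25 had at least 5. Genes with more spliced reads had one more often: 11.4% of 3860 genes with 20 to 99 reads over both libraries, 18.8% of 1874 with 100 or more and under 500, 27.7% of 282 with 500 or more and under 2000, and 68.2% of 44 with 2000 or more. In genes with at least 20 spliced reads, the structures chosen on a library took a median of 9.03% of the gene in replicate 1 (607 structures) and 9.62% in replicate 2 (911). Choice by reads of the same library can raise these shares. Of 863 structures in genes with 20 such reads in both libraries, 13 (1.51%) took more than 50% in both.

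Among the 8 gene lists, steroid synthesis had the most structures, with a share of reads below that of all genes. In a list of 17 genes, 11 had 79 structures, 47 of them read in both libraries and 41 of them intron retentions. They held 1.42% of the spliced reads of the list in replicate 1 and 2.56% in replicate 2, beside 2.24% and 3.28% for all genes. Cyp21a1 had 28 structures, 20 of them retentions, with 147 reads in replicate 1 (1.25% of the gene) and 228 in replicate 2 (2.08%). Cyp21a2-ps, a pseudogene near-identical to Cyp21a1, had 10, all retentions, at 12.7% of its reads in replicate 1 and 47.9% in replicate 2, and the split of reads between these copies is uncertain. Cyp11a1 had 15, at 1.96% in replicate 1 and 7.28% in replicate 2, Cyp11b1, the 11-beta-hydroxylase, had 9, and Fdxr had 8, at 17.7% in each library. Of 48 list members tested, 16 were higher in replicate 2 and 4 lower, beside 12.9% of all 3611 models called, 5.68% higher and 7.23% lower in replicate 2.

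Of 30 chromaffin and granule genes, 8 had 21 structures, at 1.89% of the list's spliced reads in replicate 1 and 4.80% in replicate 2. With the same limits, of 15 tested 6 were higher in replicate 2 and 1 lower, beside 5.68% and 7.23% of all models. Th, tyrosine hydroxylase, the rate-limiting enzyme of catecholamine synthesis, had 7, all of them retentions and all read in both libraries, with 45 reads in replicate 1 (2.07%) and 121 in replicate 2 (16.3%). The most read had 7 reads (0.321%) in replicate 1 and 48 (6.46%) in replicate 2, higher in replicate 2 (exact adjusted p = 3.39e-20). Pnmt, which makes adrenaline from noradrenaline, had a structure with another last exon or acceptor at 21 reads in replicate 1 and 2 in replicate 2 (exact adjusted p = 1).

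Splicing factors had the highest share, with 51 structures in 18 of 49 genes at 17.1% of the spliced reads of the list in replicate 1 and 21.6% in replicate 2. Hnrnpk, with 10 structures at 51.4% of its reads in replicate 1 and 82.9% in replicate 2, Mbnl2 and Srsf5 gave most of the reads. The replicate 1 shares of Hnrnpk and of the list leave out 197 Hnrnpk reads. These had the introns of a member but the class NNC, so the order of these shares between the libraries depends on the class name. Of 29 tested, 3 were higher in replicate 2 and 2 lower, beside 5.68% and 7.23% of all models. Cholesterol genes had 13 structures in 8 of 30 genes at 2.14% in replicate 1 and 6.09% in replicate 2, and of 2 tested neither was called. For genes of the respiratory chain and ATP synthase the share was 0.474% in replicate 1 and 1.05% in replicate 2, with 8 structures in 5 of 38 genes. Chaperones had 12 in 10 of 32 genes at 0.361% in replicate 1 and 0.737% in replicate 2, among them a retention structure of Hspe1, the mitochondrial co-chaperonin, with 5 of 895 spliced reads in replicate 1 and 10 of 72 in replicate 2, higher in replicate 2 (exact adjusted p = 2.15e-07). Ribosomal proteins and translation factors had 13 in 6 of 33 genes at 0.734% in replicate 1 and 1.96% in replicate 2. Of 16 mRNA decay factors none had a structure, at a total of 557 spliced reads in replicate 1 and 203 in replicate 2. In single genes of these lists, the complex I subunit Ndufs1 had 7 reads (7.29%) in replicate 1 and 24 (8.42%) in replicate 2. The mitochondrial chaperonin Hspd1 had 15 (2.30%) in replicate 1 and 45 (2.59%) in replicate 2 from another first exon, which did not differ past the threshold (exact adjusted p = 1). The RNA helicase Ddx5 had 8 (4.42%) in replicate 1 and 27 (2.02%) in replicate 2, likewise below it (exact adjusted p = 0.259). Dhcr7, the last enzyme of cholesterol synthesis, had 0 of 13 spliced reads in replicate 1 and 20 of 78 in replicate 2 in a structure with the annotated coding sequence, and mevalonate kinase Mvk had 13 of 37 in replicate 1 and 4 of 15 in replicate 2, both with too few reads for the test. The lists were described by these counts only, and no list was tested as a whole.

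The use of a structure within its gene could be tested for 488 of the 1442. The rest had under 10 reads over both libraries or a gene with under 20 spliced reads in either. Of the 488, 80 were called (16.4%), 57 higher in replicate 2 (11.7%) and 23 lower (4.71%). Over all 3611 models 12.9% were called, 5.68% higher and 7.23% lower. Of 2896 known models 355 were called, 131 higher and 224 lower, and of 227 NNC models 31, 17 higher and 14 lower. Many of the called structures had reached 5 reads in 1 library only, which favours a difference in that direction. Of the 183 tested that reached it in replicate 2 only, 40 were called, all higher, and of the 90 in replicate 1 only, 18 were called, all lower. Of the 215 that reached it in both libraries 22 were called (10.2%), 17 higher and 5 lower, and 39 of the 80 calls had 0 reads as NIC in 1 library. Structures with 0 reads in 1 library are therefore given as values, with a p only after NIC and NNC reads of the same introns were summed. The median difference of replicate 2 minus replicate 1 was 0.394 percentage points for the NIC structures and -0.419 for all models.

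Of the 57 structures higher in replicate 2, 34 were intron retentions. Of 105 retentions tested, 34 were higher in replicate 2 and 2 lower (34.3% called), with a median difference of 2.22 percentage points. Among the 35 retentions with at least 5 reads in each library, 12 were higher in replicate 2 and 0 were lower. Of 64 exon skips, 4 were called and all were lower. Of 125 alternative first exons, 8 were higher and 8 lower, and of 194 new pairings 15 were higher and 9 lower. Length moved with these calls, taken over all 80. Of the 80, 22 had reached 5 reads in both libraries, and no length split was made for those 22. Reaching 5 reads in 1 library only favours a call in that direction. Of 215 structures longer than the other spliced models of their gene, 48 were higher in replicate 2 and 3 lower, and of 273 shorter ones 9 were higher and 20 lower. Retentions were longer in 83 of 105, with 32 higher and 1 lower, and among the 22 shorter ones 2 were higher and 1 lower. The median length over spliced known reads was 1674 bases in replicate 1 and 2740 in replicate 2, and the part of length in these calls was not tested.

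**Figure D5:**
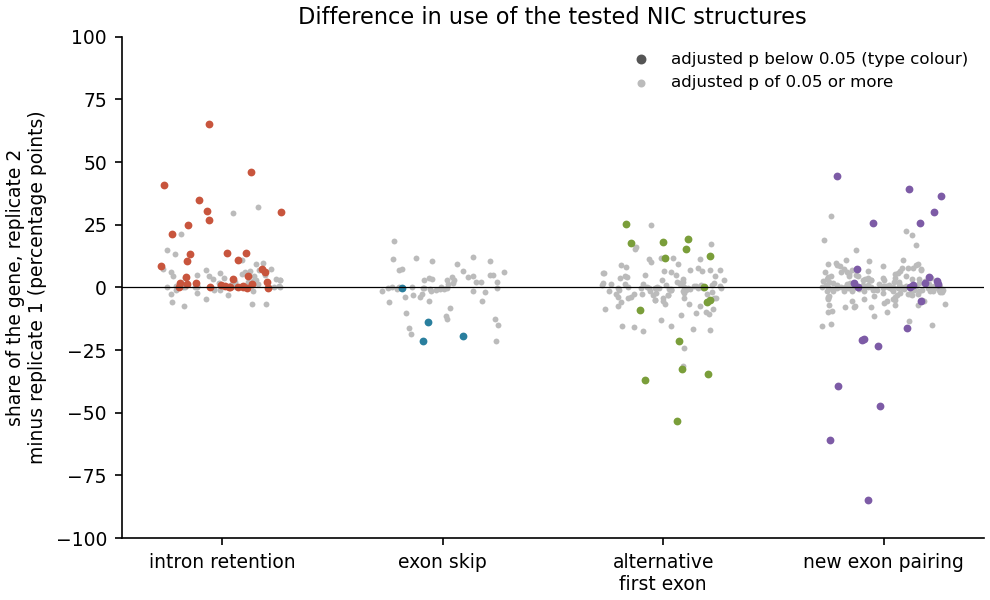
Difference of replicate 2 minus replicate 1 in the share of the gene's spliced reads (percentage points) for each tested NIC structure by type, with called structures marked. Of 105 retentions 34 were higher in replicate 2 and 2 lower, and of 64 exon skips none was higher and 4 were lower.

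The class name also moved with the calls. Of 422 tested structures with all sites listed 58 were called (13.7%), 44 higher and 14 lower, and of 66 with an unlisted site 22 were called (33.3%), 13 higher and 9 lower. With NIC and NNC reads of the same introns summed, 506 were tested and 67 called, 48 higher and 19 lower. Of the 80 first calls 65 were called in the same direction, and of the 15 that were not, 14 had an unlisted site.

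Several of the largest differences were in structures with an unlisted site. Idh3g, a subunit of the mitochondrial isocitrate dehydrogenase, had 234 of 276 reads in replicate 1 (84.8%) and 0 of 44 as NIC in replicate 2. The same introns had 26 reads as NNC in replicate 2, and the summed shares were 84.8% in replicate 1 and 59.1% in replicate 2 (exact adjusted p = 0.00333). Bsg, the membrane protein basigin, had 235 reads in replicate 1 (16.0%) and 0 in replicate 2, with 13 as NNC there (exact adjusted p = 1 after summing). Uckl1, a uridine-cytidine kinase-like protein, had 17 reads in replicate 1 and 0 in replicate 2, with 22 as NNC there (exact adjusted p = 0.841 after summing). Arfgap3, a GTPase-activating protein of the Golgi, had 0 reads in replicate 1, with 15 as NNC there, and 20 in replicate 2 (exact adjusted p = 0.934 after summing). The glycolytic pyruvate kinase Pkm had 0 in replicate 1, with 13 as NNC there, and 36 in replicate 2 (exact adjusted p = 0.672 after summing), and the elongation factor Eef1a1 had 0 in replicate 1, with 4 as NNC there, and 58 in replicate 2 (exact adjusted p = 0.698 after summing). Dus1l, a tRNA-modifying enzyme, had 17 reads in replicate 1 and 0 as NIC in replicate 2, where 18 reads of the same introns were incomplete matches.

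Other large differences were in structures with listed sites. Sat1, which breaks down polyamines, had a structure with a kept intron of 1466 bases at 0 of 51 spliced reads in replicate 1 and 13 of 20 in replicate 2 (65.0%, 40.8 to 84.6). The 0 reads allow a share of up to 5.88%. A retention structure of Mocs2, a molybdopterin synthase, held 10 of 71 (14.1%) in replicate 1 and 11 of 20 (55.0%) in replicate 2, higher in replicate 2 (exact adjusted p = 0.00498), and Srrm1, a splicing coactivator, had a new pairing in 6 of 22 (27.3%) in replicate 1 and 24 of 36 in replicate 2 (66.7%; exact adjusted p = 0.0489, and 0.0524 with NIC and NNC reads summed). Ptov1, a nuclear and cytoplasmic adaptor protein, was lower in replicate 2, at 206 of 304 (67.8%) in replicate 1 and 8 of 28 in replicate 2 (28.6%; exact adjusted p = 0.00153). In the ribosomal protein gene Rps24 one structure with an unlisted donor had 95 of 201 (47.3%) in replicate 1 and 0 of 108 as NIC in replicate 2, with 3 reads as NNC there and 2.78% after summing. A retention structure of Rps24 with listed sites had 0 in replicate 1 and 33 in replicate 2 (30.6%). The annotated intron that it keeps had 0 junction reads in both libraries, so its kept share was 100% in both by construction. The intron with the unlisted donor of the first Rps24 structure (chr14:24494088-24495774) removes part of the same place. It had 128 reads in replicate 1 and 3 in replicate 2. Whether retention differed cannot be read from the kept share, which leaves these reads out. Uchl3, a ubiquitin hydrolase, had 67 of its 78 spliced reads in replicate 1 in a NIC structure, and no spliced read of the gene in replicate 2, so no share could be compared. Atp2b1, a plasma membrane calcium pump, had 60 of 63 spliced reads in replicate 1 in a NIC structure and 0 of 5 in replicate 2, where 2 reads of the same introns were incomplete matches. Lonp1, a mitochondrial protease, had a retention structure at 0 of 241 spliced reads in replicate 1 and 29 of 2192 (1.32%) in replicate 2. Over all structures, 0.837% of spanning reads kept that intron in replicate 1 and 3.52% in replicate 2.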

How the data were processed

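Long-read RNA libraries of C57BL/6J mouse adrenal gland were analysed from the authors' deposited read counts per transcript model and their model annotations (mm10, GENCODE M21 and TALON, per the file headers and labels). The counts are whole numbers and not normalized; the sources used here do not give aligner or platform. CPM was computed from counts scaled to 1000000. NIC structures with at least 5 reads in either library were matched by all introns and typed against the annotated model with the most shared introns. Sequence came from GENCODE M21 transcripts. Shares have exact Clopper-Pearson 95% intervals and a count of 0 a floor of 3 counts; both cover counting error only, since reads are not independent molecules. Use within genes was compared by Fisher's exact test (two-sided, Benjamini-Hochberg, threshold 0.05) over models with at least 10 reads summed and 20 spliced reads of the gene in each library, which compares 2 libraries. On simulated data for this test, 100 of 200 models changed by 4-fold odds were recovered among 3611, with 2 false calls. Named structures are the 15 of highest mean CPM, the 3 highest of each type, the 8 of highest share, the 4 most read per gene list, and the 5 largest differences and 5 most read in only 1 library, per direction. The structures, lists and rules were chosen with earlier results of these data known. Python 3.11.15, numpy 2.4.6, pandas 2.3.3, scipy 1.17.1 and statsmodels 0.14.6 were used.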

Additional observations from a re-analysis of the deposited data

How the results depend on the processing

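The number of structures depends on the read minimum. It was 1442 at 5 reads, 3000 at 3 reads, 557 at 10 reads and 258 with 5 reads in both libraries; single libraries gave 688 to 1012. Structures read in both libraries numbered 890 at 5 reads, 1475 at 3 and 411 at 10. At 10 reads there were 96 retentions, 66 skips, 158 alternative first exons, 235 new pairings and 134 with an unannotated junction. Single libraries gave 74 to 249, 93 to 124, 217 to 255 and 302 to 383 of the 4 types. Alternative first exons were 246 when types were ordered the other way round. The share found again was 72.1% from replicate 1 and 80.4% from replicate 2 at 10 reads, and 71.7% and 74.4% with all sites listed, an alternative chosen after the data were seen, as were leaving out stretches under 30 bases, summing NIC and NNC, and requiring 5 reads in each library for the calls. The calls of use within genes were 126 with all reads of the gene as total (97 higher in replicate 2), 42 at 20 reads (30 higher, 12 lower) and 37 under Holm adjustment (24 higher, 13 lower); with all sites listed 14 were lower, and with 5 reads in each library 22 were called (17 higher, 5 lower). In each of these settings more were higher than lower in replicate 2. The cause of these changes was not tested, beyond the fewer structures that a higher minimum leaves. Of the recomputed values, 30 stayed close to the first value and 34 did not. No paired analysis was possible because there is 1 group. With 2 libraries, the spread between them and the depth of replicate 2 limit what a count of 0 can show.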
